A study of Rattus norvegicus with 15 samples.

Results

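The genes of cholesterol and fatty acid synthesis were followed in rat femur after ovariectomy and treatment with 2 plant extracts. They were a list of 28 genes, taken by gene symbol from the 30454 genes of the deposited tables, and all 28 were present. The list comprised 17 enzymes of the cholesterol arm, 8 enzymes of the fatty acid arm and 3 regulators (Insig1, Srebf1 and Srebf2). Polyadenylated RNA of the femur was sequenced in 15 libraries, 3 in each of 5 groups, from female SD rats that were 8 weeks old at the start. Sham rats lost fat near the ovaries and kept their ovaries, while rats of the other 4 groups lost both ovaries, the main source of estrogen. After 6 weeks of recovery, OVX rats received saline for 8 weeks, as did Sham rats. The treated ovariectomised rats were gavaged daily, those of group J with 1.6 g/kg of walnut (Juglans regia) extract, those of group P with 2.4 g/kg of Psoralea corylifolia extract, and those of group PJ with 4.0 g/kg of the combination. The combination was thus given at a higher total dose, and combination and total dose cannot be told apart. Whether the 3 libraries of a group were 3 different rats is not stated in the labels, and p-values therefore measure the spread between these libraries. The labels also do not say which part of the femur was used. A difference in the part sampled therefore cannot be told apart from a difference between groups.

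Cholesterol is built from acetyl-CoA through mevalonate, isoprenoid diphosphates and squalene, which is closed to lanosterol and trimmed to the final sterol. Fatty acid synthesis starts from the same acetyl-CoA, which is carboxylated, assembled into palmitate, and then elongated and desaturated. Transcription of both arms is driven by the sterol regulatory element-binding proteins: the product of Srebf2 acts mainly on cholesterol genes, the product of Srebf1 mainly on fatty acid genes, and Insig1 holds their precursors in the endoplasmic reticulum when sterols are plentiful. In the femur these enzymes are found in many cells, and fat cells of the marrow are rich in the fatty acid arm.

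Levels are given as FPKM (fragments per kilobase of gene, scaled to library size), which corrects for gene length, so genes can be compared with each other. Reads per library, recovered from the steps of the FPKM values, came to 34336575 (Sham 3) to 61001795 (PJ 2). Behind single values of the 28 genes stood between 22 reads (the lowest for Hsd17b7) and 21771 reads (the highest for Srebf1). The osteoblast markers Sp7 and Bglap were above 0 in all 15 libraries at 1.40 to 21.1 and 6.43 to 3620 FPKM. Some libraries stood apart. Across all tested genes P 2 correlated better with Sham 1 (Pearson's r = 0.903) than with either other P library (at most 0.851), PJ 3 better with P 1 (0.944) than with its own group (at most 0.899), P 3 better with PJ 1 (0.967) than with its own group (at most 0.962), and Sham 3 better with PJ 2 (0.946) than with its own group (at most 0.939). In bulk tissue, fewer cells of a type and less RNA per cell cannot be told apart.

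Of the 28 genes, 27 had a mean of at least 1 FPKM and were tested. Hsd17b7, which reduces a keto group on the sterol ring, fell below this filter with 0.304 to 1.15 FPKM over the 15 libraries. Fold changes are on the scale of log2(FPKM + 1), which understates the change of genes with low values. A gene was called changed at an adjusted p under 0.05 (limma, Benjamini-Hochberg over all 14416 tested genes). The 3 comparisons of a treated group with OVX share the OVX libraries, and the comparison of OVX with Sham shares them too, so their values are given side by side.

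Promoter sequence was looked at because genes of the same arm moved in opposite directions. RefSeq (assembly GRCr8, not the mRatBN7.2 build of the files) gave a promoter for 22 of the 28 genes, and the 250 bases before each start were searched on both strands. Srebf1 had 2 promoter entries, of which only the first listed was searched as a member. The octamer of the sterol regulatory element, CACCNNAC, was present in 4 of 22 promoters, those of Hmgcs1, Hsd17b7, Ebp and Insig1. That is 18.18%, against 11.03% of all 33469 promoters and 11.11% of those of tested genes. The longer form TCACNCCAC, which contains the octamer when N is C, was in 0 of 22 promoters and in 0.97% of all. CCAAT boxes, read by the factor NF-Y that often works beside the sterol element-binding proteins, were in 18 of 22 promoters (81.82%, against 34.02% of all and 35.59% of those of tested genes). They were in 12 of 14 cholesterol promoters, 3 of 5 fatty acid promoters and 3 of 3 of the regulators. GC boxes (GGGCGG) were in 20 of 22 (90.91%, against 30.47% of all and 57.79% of those of tested genes), and the E box CACGTG in 2 of 22 (9.09%, against 5.59% of all and 7.89% of those of tested genes). These matches describe letters in a window and are not measured sites. Below are the 130 bases that end 31 bases before the start of 6 genes: Hmgcs1 for its octamers, Mvd and Idi1, which were higher after ovariectomy, Lss and Msmo1, which were lower, and Fads2, which had the largest change. Capitals mark CCAAT boxes (ATTGG where the box is on the other strand) and, in Hmgcs1, also the octamers (GTCCGGTG, which runs directly into a CCAAT box, and GTCGGGTG, both on the other strand).
Hmgcs1, chr2:53382144-53382273, plus strand: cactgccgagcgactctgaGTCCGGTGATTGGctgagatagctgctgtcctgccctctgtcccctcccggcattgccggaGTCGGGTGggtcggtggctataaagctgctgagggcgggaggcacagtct
Mvd, chr19:67415005-67415134, minus strand: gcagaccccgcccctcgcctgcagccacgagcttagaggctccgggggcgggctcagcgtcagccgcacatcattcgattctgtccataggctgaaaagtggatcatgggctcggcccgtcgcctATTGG
Idi1, chr17:66547555-66547684, minus strand: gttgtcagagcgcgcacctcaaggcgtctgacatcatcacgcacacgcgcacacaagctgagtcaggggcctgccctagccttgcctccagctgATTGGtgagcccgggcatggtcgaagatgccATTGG
Lss, chr20:12118261-12118390, minus strand: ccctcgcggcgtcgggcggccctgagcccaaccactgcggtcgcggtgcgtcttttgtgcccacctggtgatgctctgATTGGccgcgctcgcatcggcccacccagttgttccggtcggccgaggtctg
Msmo1, chr16:29746953-29747082, plus strand: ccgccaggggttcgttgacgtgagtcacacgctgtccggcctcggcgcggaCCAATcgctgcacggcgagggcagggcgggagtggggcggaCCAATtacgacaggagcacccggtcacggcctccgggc
Fads2, chr1:216172064-216172193, minus strand: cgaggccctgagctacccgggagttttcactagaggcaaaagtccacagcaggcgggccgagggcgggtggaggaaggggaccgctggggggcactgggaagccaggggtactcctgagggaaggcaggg

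These stretches lie upstream of the RefSeq start of each gene. Idi1 and Msmo1 each held 2 CCAAT boxes in the stretch shown, Mvd, Lss and Hmgcs1 held 1, and Fads2 held none in its whole promoter window. Genes with boxes were thus found among those that rose after ovariectomy (Idi1, Mvd) and among those that fell (Lss, Msmo1). Since 12 of 14 cholesterol promoters held a box, this was likely for any genes picked from that arm. It says nothing about the direction of change.

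Between OVX and Sham, individual enzymes of both arms differed in both directions. In OVX against Sham, 6 of the 27 tested genes rose and 5 fell, 11 in all or 40.7%, while 54.2% of all tested genes were called (25.3% higher and 28.9% lower). The share of synthesis genes was thus below the background. The libraries of the 2 groups did not overlap in 14 of the 27 genes, against 66% of all tested genes. Early enzymes of the cholesterol arm Mvd and Idi1 rose, the ring-forming enzyme Lss and the demethylating enzyme Msmo1 fell, and in the fatty acid arm the desaturases Fads1 and Fads2 and the elongase Elovl6 rose while Acss2 fell.

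In the mevalonate part of the cholesterol arm, Idi1 (ENSRNOG00000016690), which converts isopentenyl diphosphate into its reactive isomer, was at 3.51, 3.82 and 4.38 FPKM in Sham and at 9.80, 7.36 and 10.3 in OVX. The ranges did not overlap, and the log2 fold change was 1.04 ± 0.18 (SE, adjusted p = 0.000275). Mvd (ENSRNOG00000013376), the decarboxylase that makes isopentenyl diphosphate, was at 1.91, 1.79 and 3.64 FPKM in Sham and at 5.40, 5.03 and 5.50 in OVX. All OVX libraries lay above all Sham libraries, with a log2 fold change of 0.91 ± 0.25 (adjusted p = 0.00822).

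Other early steps moved less. Pmvk, which adds the second phosphate to mevalonate, fell by 0.54 on the log2 scale (adjusted p = 0.0384), from 22.8 ± 4.0 FPKM (SD, n = 3) to 15.3 ± 2.4. Fdps, which joins isoprenoid units to farnesyl diphosphate, fell by 0.43 (adjusted p = 0.0120), from 11.1 ± 0.7 to 8.01 ± 1.25 FPKM. Fdft1, the squalene synthase that commits farnesyl units to sterols, rose by 0.42 (adjusted p = 0.0219), from 2.72 ± 0.51 to 3.94 ± 0.37 FPKM. Of these 3 genes, Pmvk lost its call in 8 of 18 alternative analyses, Fdft1 in 6 of 17 and Fdps in 3 of 18. Hmgcs1, which makes the precursor of mevalonate, averaged 14.9 ± 2.6 FPKM in OVX and 11.2 ± 2.5 in Sham, a difference of 0.39 ± 0.22 that did not pass (adjusted p = 0.147). Mvk, the mevalonate kinase, differed by -0.15 ± 0.17 (adjusted p = 0.468), and Sqle, the squalene epoxidase, by 0.20 (adjusted p = 0.195).

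The later cholesterol enzymes gave the strongest declines of the arm. Lss (ENSRNOG00000054549), which closes squalene epoxide to lanosterol, was at 12.0, 9.43 and 7.55 FPKM in Sham and at 3.05, 2.77 and 4.78 in OVX. No OVX library reached the lowest Sham library, and the log2 fold change was -1.24 ± 0.21 (adjusted p = 0.000302). Msmo1 (ENSRNOG00000032297), which removes methyl groups from the sterol ring, was at 16.9, 15.8 and 17.5 FPKM in Sham and at 12.8, 9.14 and 10.0 in OVX. Again the groups did not overlap, with a log2 fold change of -0.61 ± 0.13 (adjusted p = 0.00144). Of the remaining late enzymes, Cyp51, Tm7sf2, Nsdhl, Ebp, Sc5d and Dhcr7, none passed the test, and their log2 differences ran from -0.30 (Sc5d) to 0.25 (Nsdhl).

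In the fatty acid arm, Fads2 (ENSRNOG00000020440), the desaturase that takes the first step from dietary polyunsaturated fatty acids, had the largest change of the 27 genes. It was at 1.73, 3.47 and 5.47 FPKM in Sham and at 17.3, 21.7 and 14.8 in OVX. The lowest OVX value was well above the highest Sham value, and the log2 fold change was 2.12 ± 0.27 (adjusted p = 3.07e-05). Fads1 (ENSRNOG00000020480), the desaturase of the next steps of the same route, was at 6.71, 13.2 and 23.5 FPKM in Sham and at 31.2, 30.3 and 32.1 in OVX. The Sham libraries were widely spread and the OVX libraries close together, with no overlap and a log2 fold change of 1.21 ± 0.33 (adjusted p = 0.00722). Elovl6, which elongates palmitate, rose by 0.87 ± 0.23 (adjusted p = 0.00711) from a low level, 1.02 ± 0.49 to 2.65 ± 0.59 FPKM.

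Acss2 (ENSRNOG00000018755), which makes acetyl-CoA from acetate, was at 10.6, 11.3 and 10.7 FPKM in Sham and at 4.99, 5.09 and 8.57 in OVX. It fell by 0.75 ± 0.25 on the log2 scale (adjusted p = 0.0217) without overlap, and the call was lost when Sham 2, OVX 1 or OVX 2 was left out. Acaca, the carboxylase that makes malonyl-CoA, averaged 7.36 ± 1.22 FPKM in Sham and 4.33 ± 1.28 in OVX, a difference of -0.67 that did not pass (adjusted p = 0.0635). Me1, malic enzyme, which supplies NADPH, differed by -0.64 (adjusted p = 0.0618), with Sham libraries from 13.5 to 35.4 FPKM. Acly and Fasn, the citrate lyase and the fatty acid synthase itself, differed by -0.11 and 0.15 (adjusted p = 0.636 and 0.816).

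None of the 3 regulators passed in OVX against Sham. Srebf1 was at 23.1, 34.7 and 33.9 FPKM in Sham and at 8.83, 11.4 and 34.6 in OVX, and Insig1 at 37.6, 43.5 and 45.5 in Sham and at 15.4, 19.7 and 49.0 in OVX. In both genes OVX 3 lay apart from the other 2 OVX libraries. It lay within the Sham range for Srebf1 and above it for Insig1. Without OVX 3 both were called, with log2 fold changes of -1.50 for Srebf1 (adjusted p = 0.0123) and -1.22 for Insig1 (adjusted p = 0.00412), and 14 of the 27 genes passed in all, beside 50.1% of all tested genes in that fit. Srebf2 was close in both groups, at 18.2 ± 0.6 FPKM in Sham and 16.3 ± 1.9 in OVX.

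**Figure D1:**
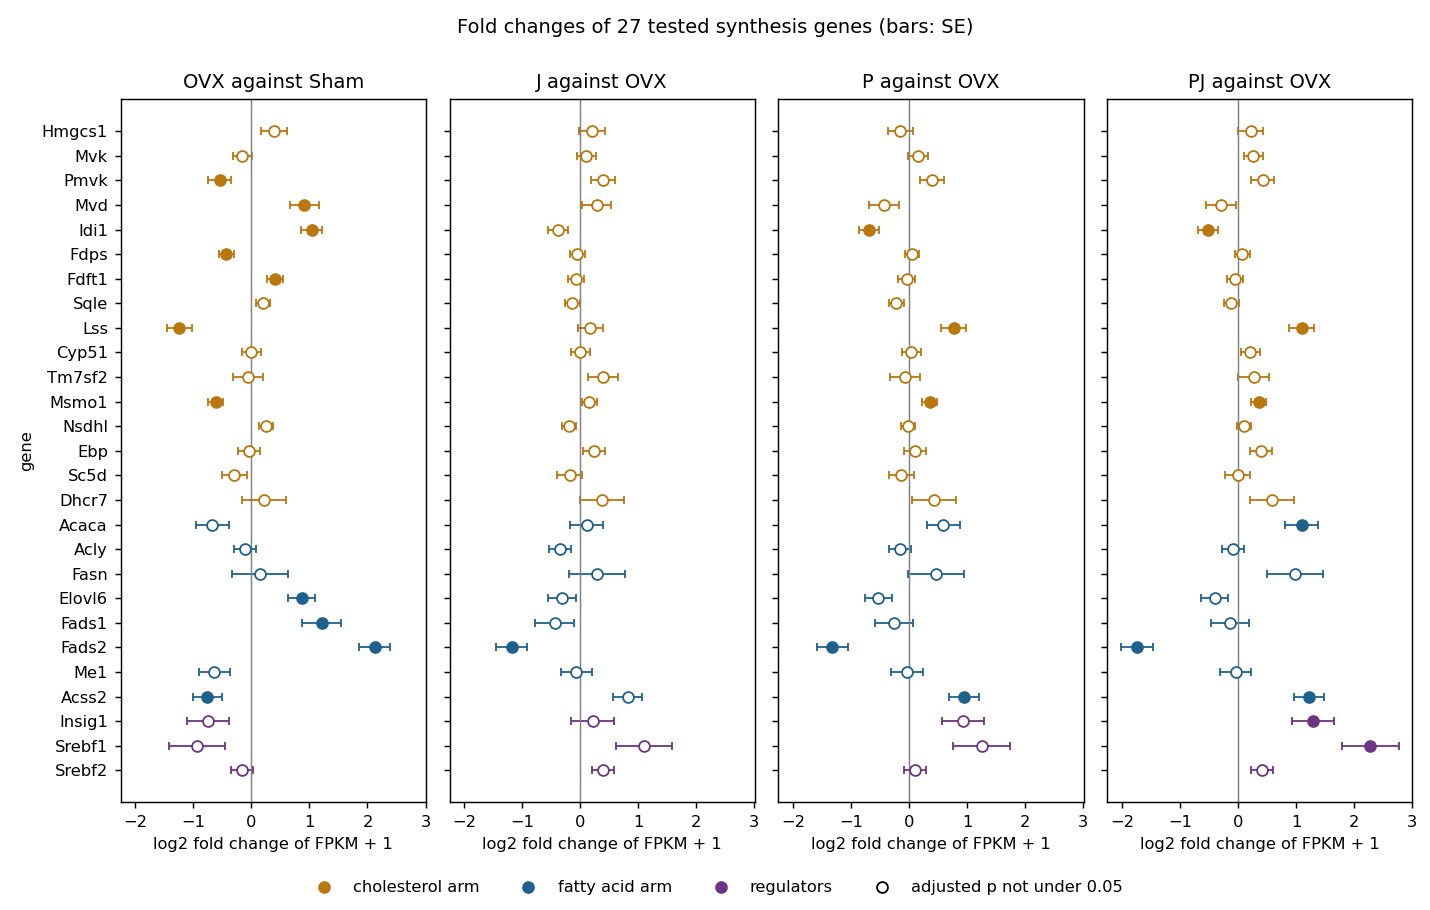
Log2 fold changes of FPKM + 1 (x axis) of the 27 tested genes (y axis) in 4 comparisons; points are limma estimates, bars their SE, filled points passed an adjusted p under 0.05. Filled points lie on both sides of 0 in each arm in OVX against Sham, and Fads2 is at 2.12 there and at -1.18, -1.32 and -1.74 in the 3 comparisons of a treated group with OVX.

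The plot of fold changes by gene shows that neither arm shifted as a block. In OVX against Sham the median log2 fold change was -0.02 over the 16 tested cholesterol enzymes and 0.02 over the 8 fatty acid enzymes, while the median of all tested genes was -0.04. The cholesterol enzymes were split into 8 positive and 8 negative values, and the fatty acid enzymes into 4 and 4. Subtracting the fatty acid median from the cholesterol median gave -0.04. Libraries of 1 group differed by 0.25 (pooled SD) in the gap between the median log2 levels of the arms. That SD belongs to median levels and not to medians of fold changes, so it cannot be set against the -0.04. Averaged over the libraries of a group, those levels were 3.19 in Sham and 3.08 in OVX for the cholesterol arm. For the fatty acid arm they were 3.32 in Sham and 3.65 in OVX. With means of the fold changes in place of medians the difference between the arms was -0.27. When Acly and Acss2, whose acetyl-CoA feeds both arms, were left out of the fatty acid arm, the difference of the medians was -0.53. Without OVX 3 it was 0.26, so its sign depended on these choices.

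Cell-type markers moved with this comparison. The summed FPKM of 7 erythroid markers was 19.95 to 86.4 in Sham and 2886 to 3883 in OVX, that of 6 neutrophil markers 157.9 to 363.9 in Sham and 12137 to 14064 in OVX, and that of 6 cell cycle genes 52.0 to 76.0 and 606.8 to 689.7. All 7 tested erythroid, all 6 tested neutrophil and all 6 cell cycle genes were called higher in OVX, and no defining marker of these lists (Slc4a1 and Alas2, Mpo and Mmp8) was at 0 in any library. The summed FPKM of 3 cartilage markers was 711.6 to 1463 in Sham and 0.52 to 1.25 in OVX. All 3 endothelial markers were called lower in OVX and all 3 B cell markers higher. The part of these marker lists in the changes of the synthesis genes was not tested, except for the erythroid list. With the erythroid markers as a covariate 0 of the 27 synthesis genes and 0 of all tested genes were called. In that fit group and covariate almost coincide.

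With the walnut extract alone 1 of the 27 genes was called against OVX. In J against OVX, Fads2 was at 6.87, 8.49 and 6.51 FPKM in J, below all 3 OVX libraries and above all 3 Sham libraries. Its log2 fold change was -1.18 ± 0.27 (adjusted p = 0.0282). This is 3.7% of the synthesis genes, against 6.06% of all tested genes (3.27% higher and 2.79% lower). J and OVX did not overlap in 5 of the 27, against 37.6% of all tested genes. The call was lost in 7 of 18 alternatives, among them leaving out OVX 1, OVX 2, J 1 or J 3, while the value stayed between -1.34 and -1.04. Acss2 was at 13.7, 13.4 and 7.97 FPKM in J, with a difference of 0.81 that did not pass (adjusted p = 0.0717), J 3 lying below the highest OVX library. Idi1 differed by -0.38 (adjusted p = 0.198) and Srebf1 by 1.10 ± 0.49 (adjusted p = 0.184). The median difference was 0.13 in the cholesterol arm and -0.19 in the fatty acid arm, beside 0.11 over all tested genes.

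With the Psoralea extract 5 of the 27 genes were called against OVX (18.5%, against 39.2% of all tested genes). Lss, Msmo1 and Acss2 were higher and Idi1 and Fads2 lower than in OVX (24.2% and 15% of all tested genes were). The groups did not overlap in 8 of the 27, against 50.9% of all tested genes. Idi1 was at 5.84, 4.11 and 5.98 FPKM in P, below every OVX library, with a log2 fold change of -0.69 ± 0.18 (adjusted p = 0.00826). Lss was at 7.01, 5.06 and 7.97, above every OVX library, with 0.77 ± 0.21 (adjusted p = 0.0124). The Lss call was lost in 5 of 19 alternatives, among them leaving out OVX 1, OVX 2 or P 3. Both genes thus lay between the OVX and the Sham means, although P 2 reached the Sham range for Idi1. Fads2 was at 5.62, 6.12 and 7.88 FPKM, below every OVX library, with -1.32 ± 0.27 (adjusted p = 0.00227).

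Acss2 was at 15.2, 8.34 and 15.4 FPKM in P, and P 2 lay below OVX 3, so the groups overlapped although the gene passed with 0.94 ± 0.25 (adjusted p = 0.00996). Msmo1 was at 13.4, 14.9 and 13.2 FPKM, with 0.36 ± 0.13 (adjusted p = 0.0463). That call was weak, since it was lost in 13 of 19 alternatives. Srebf1 was at 62.9, 18.7 and 45.2 FPKM in P and Insig1 at 68.5, 30.2 and 52.7. P 2 was the lowest library in both, and neither passed (adjusted p = 0.0579 and 0.0615).

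P 2 was also low in the last cholesterol enzyme and in fatty acid enzymes. Dhcr7, which makes the last reduction to cholesterol, was at 11.5, 2.44 and 9.79 FPKM in P against 4.41 to 5.38 in OVX. Fasn was at 24.1, 5.29 and 19.3, and Acaca at 7.79, 4.33 and 9.30. In all 3 genes P 1 and P 3 lay above the OVX range and P 2 lay within or below it. P 2 also differed in markers of other tissues. Cartilage markers summed to 715.9 FPKM in P 2, 12.1 in P 1 and 30.4 in P 3, and skeletal muscle markers to 822.3, 39.0 and 7.73. Mitochondrial genes held 35.9% of all FPKM in P 2, 17.6% in P 1 and 11.2% in P 3. The part of these differences in the values of P 2 was not tested. Without P 2 and PJ 3, 9 of the 27 genes passed in P against OVX (44.9% of all tested genes did): Lss, Dhcr7, Acaca, Fasn, Acss2, Insig1 and Srebf1 rose and Idi1 and Fads2 fell, while Msmo1 lost its call. Dhcr7 then had a log2 fold change of 1.02 (adjusted p = 0.00390) and Srebf1 of 1.74 (adjusted p = 0.0136).

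With the combined extract 8 of the 27 genes were called against OVX (29.6%). Of all tested genes 44.4% were called, 29.8% higher and 14.6% lower. Lss, Msmo1, Acaca, Acss2, Insig1 and Srebf1 rose, and Idi1 and Fads2 fell. PJ and OVX did not overlap in 14 of the 27, against 58.5% of all tested genes. Srebf1 (ENSRNOG00000003463) was at 69.2, 80.4 and 85.4 FPKM in PJ. Each PJ library exceeded every library of the other 4 groups, and the log2 fold change against OVX was 2.28 ± 0.49 (adjusted p = 0.00243). Insig1 (ENSRNOG00000006859) was at 64.5, 68.4 and 53.4 FPKM in PJ, above every OVX library, with 1.29 ± 0.37 (adjusted p = 0.0127). Leaving out OVX 1 or OVX 2 ended the Insig1 call.

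Srebf2 was at 21.9, 16.7 and 28.8 FPKM in PJ, with a log2 difference of 0.41 ± 0.19 that did not pass (adjusted p = 0.0951), and PJ 2 lay within the OVX range of 14.7 to 18.5. It passed in 3 of 19 alternatives, with array weights, with the replicate block and without PJ 2. Whether the change of Srebf2 differed from that of Srebf1 was not tested. The log2 ratio of Srebf1 to Srebf2 within a library, a measure of the balance between the 2 factors' transcripts, was 1.57 to 2.27 in PJ, 0.29 to 2.00 in P, 0.05 to 1.35 in J, -1.06 to 1.14 in OVX and 0.39 to 0.94 in Sham.

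Among the enzymes, Lss was at 8.56, 8.03 and 8.97 FPKM in PJ, above all OVX, J and P libraries and inside the Sham range. Its log2 fold change against OVX was 1.10 ± 0.21 (adjusted p = 0.00128). Msmo1 was at 13.6, 13.5 and 14.4, above OVX and below Sham without overlap, with 0.36 ± 0.13 (adjusted p = 0.0402). That call was lost in 9 of 19 alternatives. Idi1 was at 5.49, 5.83 and 6.80 FPKM, below OVX and above Sham without overlap, with -0.52 ± 0.18 (adjusted p = 0.0296). Leaving out OVX 1, OVX 3, PJ 1 or PJ 2, or rescaling to TPM, ended this call.

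In the fatty acid arm, Acaca (ENSRNOG00000034013) was at 10.5, 13.1 and 7.62 FPKM in PJ against 4.19, 3.12 and 5.67 in OVX, a log2 fold change of 1.10 ± 0.28 (adjusted p = 0.00772). Acss2 was at 15.7, 15.2 and 15.4 FPKM, with 1.22 ± 0.25 (adjusted p = 0.00186). Both genes lay above the OVX range in all 3 PJ libraries, and Acss2 also above the highest Sham library. Fads2 was at 5.72, 4.75 and 3.56 FPKM, with -1.74 ± 0.27 (adjusted p = 0.000309), below OVX and overlapping Sham. Fads1, which had risen with Fads2 after ovariectomy, was at 29.2, 26.7 and 28.7 FPKM in PJ, with a difference from OVX of -0.14 ± 0.33 (adjusted p = 0.755). Fasn averaged 20.6 ± 4.8 FPKM in PJ and 10.6 ± 5.7 in OVX, and its difference of 0.98 ± 0.49 did not pass (adjusted p = 0.119). Without P 2 and PJ 3, 9 genes passed in PJ against OVX (50.8% of all tested genes did): Fasn and Dhcr7 were added, with 1.18 and 0.61, and Msmo1 was lost.

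**Figure D2:**
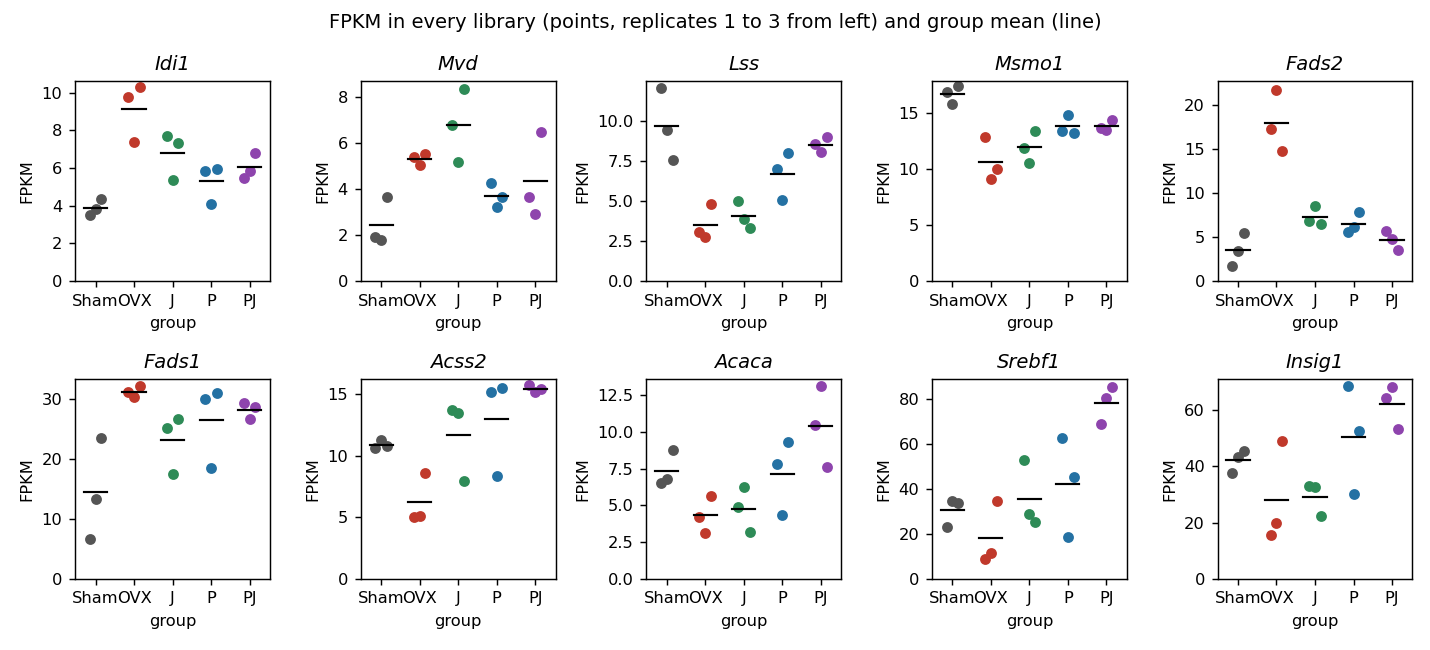
FPKM (y axes, starting at 0) of 10 synthesis genes in the 5 groups (x axes); points are libraries, replicates 1 to 3 from left, and lines are means of 3. Idi1 and Fads2 are highest in OVX, Lss and Acss2 lowest there, and Srebf1 reaches 69.2 to 85.4 in PJ, above every other library.

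The panels of FPKM by group show the order of the levels. Fads2 ran OVX, J, P, PJ, Sham from 17.9 ± 3.5 (SD, n = 3) to 3.56 ± 1.87 FPKM, a ratio of 5.04, and OVX alone stood clear of all other groups, since J and P overlapped and PJ overlapped P and Sham. Lss ran Sham, PJ, P, J, OVX from 9.67 ± 2.25 to 3.53 ± 1.09 FPKM, a ratio of 2.74, with J overlapping OVX and both P and PJ overlapping Sham. Idi1 ran OVX, J, PJ, P, Sham from 9.15 ± 1.56 to 3.90 ± 0.44 FPKM, a ratio of 2.34, and each group overlapped its neighbour in this order. Srebf1 ran PJ, P, J, Sham, OVX from 78.4 ± 8.3 to 18.3 ± 14.2 FPKM, a ratio of 4.29, and below PJ all 4 groups overlapped. Over the 28 genes PJ had the highest mean in 11 and the lowest in 0. Sham was the lowest in 11 genes and OVX in 10, and Sham was the highest in 8 and OVX in 6. Over all tested genes, 63.1% had a positive log2 fold change in PJ against OVX, 62.1% in PJ against J and 66.2% in PJ against P. How often PJ was the highest group over all tested genes was not counted. Of the synthesis genes, Cyp51, the sterol demethylase that acts on lanosterol, had group means that differed by a ratio of only 1.17, and Sqle by 1.19.

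In an F test over the 5 groups, 11 of the 27 genes passed (40.7%, against 50% of all tested genes): Mvd, Idi1, Fdps, Lss, Msmo1, Acaca, Fads1, Fads2, Acss2, Insig1 and Srebf1. Fads2 had the smallest adjusted p, 0.000339, followed by Lss with 0.000945 and Idi1 with 0.00332. The count was 5 without OVX 2, 6 without OVX 1 and 7 without PJ 1 or PJ 2.

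The treated groups were also compared with each other. The fold changes in PJ against J use no OVX library, although all 15 libraries share the estimate of the spread. In this comparison 2 of 27 genes passed (7.41%, against 14.3% of all tested genes, 8.38% higher and 5.88% lower). The groups did not overlap in 10 of the 27, against 33% of all tested genes. Lss was higher in PJ by 0.92 ± 0.21 (adjusted p = 0.0169) and Acaca by 0.99 ± 0.28 (adjusted p = 0.0376), with no overlap in either. The count was 0 without J 3, PJ 1 or PJ 2 and 1 without J 1. Srebf1 and Insig1 did not overlap between PJ and J either, with differences of 1.18 and 1.07 that did not pass (adjusted p = 0.117 and 0.0665). When only the PJ and J libraries were fitted, Lss kept its call, Acaca lost it and Insig1 gained one. In that fit 4.27% of all tested genes were called. In P against J 0 of 27 genes passed with limma (7.42% of all tested genes did, 4.37% higher and 3.05% lower), 2 had an unadjusted p under 0.05, and voom on recovered reads called 0. These 2 were Mvd, lower in P by 0.71 on the log2 scale, and Lss, higher by 0.59 (adjusted p = 0.0931 and 0.0944), and they were among the 3 genes without overlap between P and J (29.6% of all tested genes had none).

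In PJ against P no gene of the 14416 passed with limma (0%), and voom called 0. Of the 27 synthesis genes 0 had an unadjusted p under 0.05, while 296 of all tested genes did. Srebf1 had the largest difference, 1.03 ± 0.49 (adjusted p = 1.00 after rounding), and it was 1 of 2 synthesis genes whose libraries did not overlap between the groups, against 4.02% of all tested genes. This comparison rests on groups that hold P 2 and PJ 3. Leaving out both gave 0 called genes as well.

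**Figure D3:**
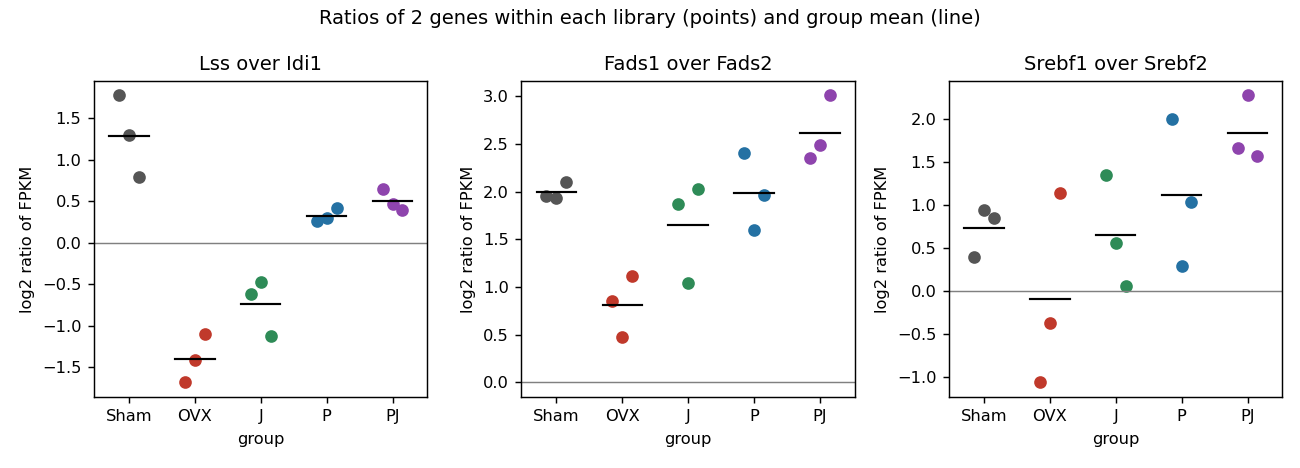
Log2 ratios of FPKM (y axes) of 2 synthesis genes within each library in the 5 groups (x axes); points are libraries and lines are group means of 3. Lss over Idi1 is -1.69 to -1.11 in OVX and 0.40 to 0.64 in PJ, with P close to PJ and J close to OVX.

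Ratios of 2 genes within a library do not depend on how the library was scaled. The pair Lss and Idi1 was picked after their values were seen, so their ratio is given as a description without a test. The log2 ratio of Lss to Idi1 was 0.79 to 1.78 in Sham, -1.69 to -1.11 in OVX, -1.13 to -0.47 in J, 0.26 to 0.42 in P and 0.40 to 0.64 in PJ. Only neighbouring groups overlapped, OVX with J and P with PJ, and the 3 P libraries were closely spaced although P 2 stood apart in other genes. The ratio of Fads1 to Fads2, consecutive desaturases of the polyunsaturated route, was 1.93 to 2.11 in Sham, 0.48 to 1.12 in OVX, 1.04 to 2.03 in J, 1.59 to 2.41 in P and 2.35 to 3.01 in PJ. OVX and PJ therefore lay on opposite sides of Sham. The plot of within-library ratios shows these values for all 15 libraries.

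The cholesterol minus the fatty acid median of the fold changes was 0.32 in J, 0.10 in P and 0.28 in PJ against OVX. Leaving out 1 library of the groups compared gave 0.208 to 0.324 in J, 0.027 to 0.275 in P and 0.143 to 0.385 in PJ. The difference between the arms was not tested. In PJ against J it was -0.14, in P against J -0.12 and in PJ against P 0.01. In PJ against OVX the medians of the fold changes were 0.21 for the cholesterol arm and -0.06 for the fatty acid arm, beside 0.22 over all tested genes. The pooled SD of 0.25 between libraries of 1 group belongs to the gap between median levels and is not the error of these differences. Averaged by group, the median levels of the cholesterol arm were 3.08 in OVX, 3.01 in J, 3.01 in P and 3.21 in PJ. Those of the fatty acid arm were 3.65, 3.56, 3.64 and 3.96. By median levels PJ thus lay further above OVX in the fatty acid arm than in the cholesterol arm, opposite to the medians of the fold changes. The 8 fatty acid enzymes summed to 110.5 to 132.9 FPKM in PJ and 110.2 to 131.2 in OVX, and the 16 tested cholesterol enzymes to 148.1 to 162.9 and 113.5 to 142.1. Both patterns depended on the scaling. With median-ratio scaling the cholesterol sums overlapped, at 130.6 to 145.2 in PJ and 128.3 to 156.2 in OVX, and the fatty acid sums did not, at 98.5 to 117.2 in PJ and 121.1 to 137.8 in OVX.

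**Figure D4:**
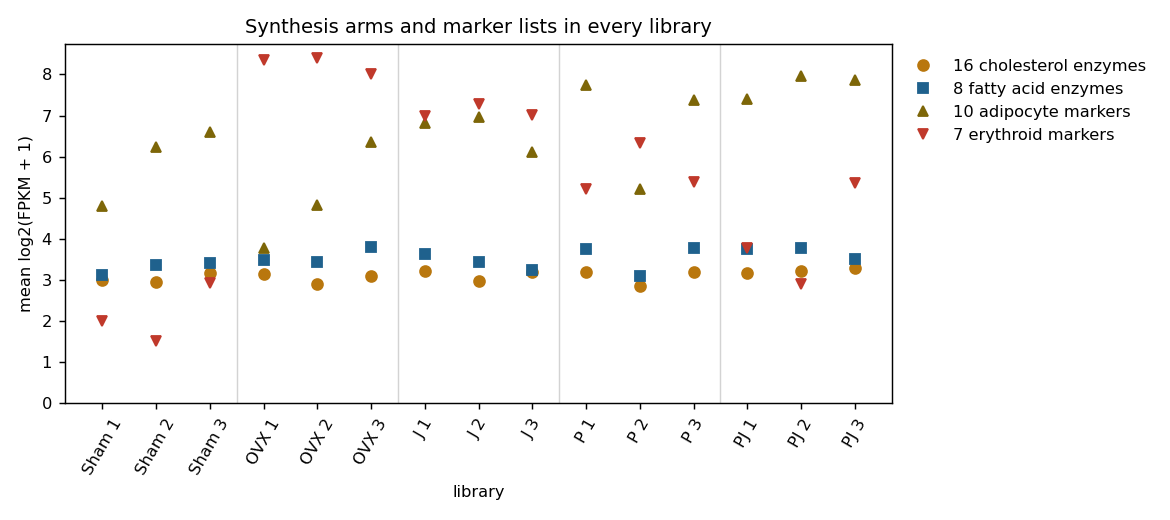
Mean log2(FPKM + 1) (y axis) of the 16 tested cholesterol enzymes, the 8 fatty acid enzymes, 10 adipocyte markers and 7 erythroid markers in each of the 15 libraries (x axis). The synthesis arms stay between 2.85 and 3.81 in every library, while the adipocyte markers run from 3.78 to 7.97 and the erythroid markers differ more widely between groups.

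As the plot of the arms by library shows, the mean levels of both arms stayed within a narrow band while marker lists moved widely. The arm means average genes that moved in opposite directions, so the narrow band does not hold for single genes. Group means of Fads2 differed by a ratio of 5.04. The mean log2 level of 10 adipocyte markers was 4.81 to 6.60 in Sham, 3.78 to 6.35 in OVX, 6.13 to 6.96 in J, 5.21 to 7.74 in P and 7.40 to 7.97 in PJ. Their summed FPKM was 664.5 to 2988 in Sham, 296.6 to 2227 in OVX, 1650 to 3623 in J, 1036 to 5075 in P and 3835 to 6140 in PJ. In PJ against OVX all 10 were called higher, in P against OVX 3, and in J against OVX and OVX against Sham 0 (4 and 1 at an unadjusted p under 0.05, and 0 with voom). The defining markers Adipoq and Plin1 were above 0 in every library, lowest in OVX 1 with 22.1 and 8.84 FPKM. The 7 erythroid markers were all called lower in P and in PJ than in OVX, with summed FPKM of 391.2 to 946.9 and 72.8 to 467.1 beside 2886 to 3883. Of 6 osteoblast markers 4 were called higher in P and 2 in PJ, and their summed FPKM was 207.8 to 425.4 in OVX, 405.5 to 6061 in P and 458.7 to 2922 in PJ. Neutrophil markers were called lower in 5 of 6 (P) and 6 of 6 (PJ), with sums of 2182 to 3951 and 1041 to 5317 FPKM beside 12137 to 14064 in OVX, and cell cycle genes in 6 of 6 in both, with 188.1 to 234.5 and 143.8 to 206.8 beside 606.8 to 689.7. All 3 endothelial markers and 3 of 4 osteoclast markers were called higher in both P and PJ, and of 4 macrophage markers 1 in P and 3 in PJ. Osteoclast sums were 139.9 to 289.8 FPKM in OVX, 550.1 to 2389 in P and 1105 to 2667 in PJ, and endothelial sums 29.4 to 41.5, 135.1 to 168.1 and 91.7 to 229.7. Single libraries stood apart inside other groups too. Osteoclast markers summed to 2219.6 FPKM in Sham 3, 86.6 in Sham 1 and 77.9 in Sham 2. Cartilage markers summed to 0.24 in PJ 3, 138.0 in PJ 1 and 260.2 in PJ 2. The part of these lists in the changes of the synthesis genes was not tested beyond the 2 covariate fits given next and above.

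**Figure D5:**
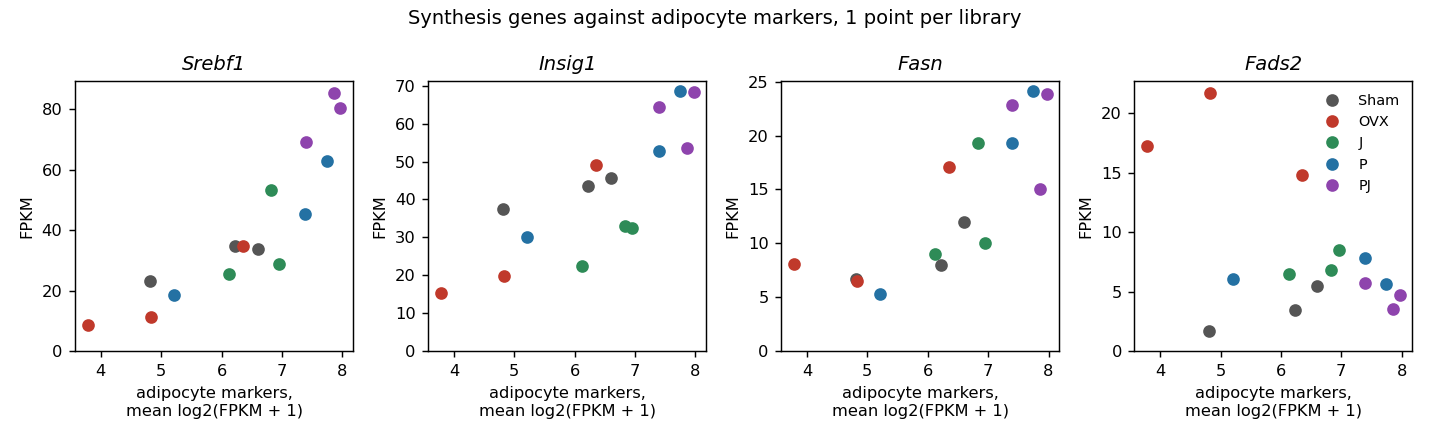
FPKM of Srebf1, Insig1, Fasn and Fads2 (y axes, starting at 0) against the mean log2(FPKM + 1) of 10 adipocyte markers (x axes), 1 point per library, coloured by group. Srebf1 is lowest in OVX 1 and highest in PJ 3, while Fads2 is highest in OVX libraries at every marker level they have.

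The plot of synthesis genes against the adipocyte markers also shows the libraries inside each group. In 5 of 5 groups the library with the lowest adipocyte level had the lowest Srebf1 (1.47% of all tested genes matched in 5), and in 2 of 5 the library with the highest level had the highest Srebf1. Insig1 matched in 4 groups at the low end and in 4 at the high end, Acss2 in 4 and 1, and Acaca, Fasn and Elovl6 in 3 and 4. At the low end 3 of the 27 genes (11.11%, against 12.54% of all tested genes) matched in at least 4 groups, and at the high end 4 (14.81%, against 6.15%). For the cell cycle genes these counts were 3 (11.11%, against 9.95%), namely Cyp51, Fads1 and Srebf2, and 2 (7.41%, against 8.76%), namely Sqle and Tm7sf2. For the erythroid markers they were 0 (against 1.66%) and 0 (against 3.27%). For the skeletal muscle markers they were 0 (against 2.28%) and 0 (against 3.91%). With 3 libraries a group, these matches are a description only. Lss, Idi1, Msmo1 and Fads2 matched in at most 3 groups at either end.

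The adipocyte marker level did not overlap between PJ (7.40 to 7.97) and OVX (3.78 to 6.35). A fit with this level as a covariate therefore cannot cleanly separate it from the group, and its values are a description only. With the adipocyte marker level as a covariate, PJ against OVX kept 3 of its 8 calls (21.8% of all tested genes were then called). These were Msmo1 (0.57, adjusted p = 0.0403), Idi1 (-0.81, adjusted p = 0.0363) and Fads2 (-2.004, adjusted p = 0.00639). Srebf1 moved from 2.28 to 0.59 (adjusted p = 0.244), Insig1 from 1.29 to 0.05 (adjusted p = 0.921), Acaca from 1.10 to 0.38 (adjusted p = 0.452) and Acss2 from 1.22 to 0.48 (adjusted p = 0.193). Lss moved less, from 1.10 to 0.80, but no longer passed (adjusted p = 0.0803). In P against OVX the fit kept Msmo1, Idi1 and Fads2, lost Lss and Acss2 and added Elovl6 (31% of all tested genes were called), and in OVX against Sham it kept all 11 calls and added Hmgcs1 and Me1 (54.1%). With the erythroid markers as the covariate 0 of the 27 genes passed in each of the 3 comparisons with OVX.

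Other genes of sterol control and transport, a list of 20 with 18 tested, were looked at beside the cholesterol enzymes. In OVX against Sham 3 rose and 7 fell, in P against OVX 5 rose and 2 fell, in PJ against OVX 8 rose and 1 fell, and in J against OVX 0 passed with limma and with voom while 2 had an unadjusted p under 0.05. The shares called in the first 3 were 55.6%, 38.9% and 50%, close to the 54.2%, 39.2% and 44.4% of all tested genes.

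The 7 that fell after ovariectomy included Npc1 (-1.54), which releases cholesterol from lysosomes, Insig2 (-1.51), a second retention protein, and Abca1 (-1.62), which exports cholesterol. Abca1 was at 6.28, 10.4 and 6.85 FPKM in Sham, 1.74, 1.39 and 2.40 in OVX, 7.59, 5.86 and 8.49 in P and 11.6, 11.7 and 5.02 in PJ. It rose by 1.55 in P and 1.81 in PJ against OVX (adjusted p = 0.00163 and 0.000458), Npc1 by 1.03 and 1.06 (adjusted p = 0.00136 and 0.000903), and all P and PJ libraries exceeded all OVX libraries in both genes. Nr1h3, a sterol-sensing nuclear receptor, rose by 1.39 in PJ (adjusted p = 0.000675), and Mbtps1, a protease that releases the sterol element-binding proteins, by 0.60 (adjusted p = 0.00285). With the adipocyte markers as a covariate Nr1h3 and Mbtps1 lost these calls in PJ, while Abca1 and Npc1 kept theirs.

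Partners of fatty acid and triglyceride synthesis, a list of 21 with 18 tested, gave 4 higher and 4 lower in OVX against Sham, 0 in J against OVX (with limma and with voom, 3 at an unadjusted p under 0.05), 4 higher and 2 lower in P and 9 higher and 2 lower in PJ. These are 44.4%, 0%, 33.3% and 61.1% of the list, against 54.2%, 6.06%, 39.2% and 44.4% of all tested genes. Scd2, a desaturase that makes monounsaturated fatty acids, was at 91.7, 75.1 and 83.0 FPKM in Sham and at 9.23, 14.4 and 14.6 in OVX, a fall of 2.64 on the log2 scale (adjusted p = 0.000158). Scd2 therefore moved opposite to Fads1 and Fads2. Elovl1, which elongates very long saturated chains, rose by 0.79 after ovariectomy (adjusted p = 0.000124) and fell by 0.70 in PJ (adjusted p = 0.000587). Acacb, the mitochondrial carboxylase, fell by 1.05 after ovariectomy and rose by 1.11 in PJ (adjusted p = 0.000862). Idh1, a cytosolic source of NADPH, rose by 1.08 in PJ (adjusted p = 0.00180). Acacb and Idh1 lost their calls in PJ with the adipocyte covariate, and Elovl1 kept its call. The medians of this list, -0.10 in OVX against Sham and 1.10 in PJ against OVX, lay beside -0.04 and 0.22 over all tested genes.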

How the data were processed

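Polyadenylated femur RNA of 15 libraries was analysed, grouped by sample title and treatment. Per the submitters' processing notes, the authors used fastp 0.23.4, STAR 2.7.11a and featureCounts 2.0.6 with build mRatBN7.2; strand and counting settings are not given in the sources used here. The authors deposited 1 value per gene, which is FPKM although the column is headed count per the file headers. Reads were recovered from the steps of the FPKM values for all 24207 genes above 0 (whole within 0.05 of a read). Of recovered values from 1 to 20, 59.8% were even, so both ends of a fragment may have been counted.

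Values were analysed as log2(FPKM + 1) for genes with a mean of at least 1 FPKM. A linear model over all 15 libraries (10 residual degrees of freedom) was fitted (limma 3.58.1, R 4.3.3), with trended empirical Bayes variances, two-sided tests, Benjamini-Hochberg adjustment over 14416 genes and a threshold of 0.05. The script was tested on simulated data. SE are those of the fit, SD those of 3 libraries. Members and lists were chosen with earlier results of these data known. All 28 synthesis genes could be named, and of the 2 pathway lists up to 4 genes of smallest p per comparison; some genes of these lists are not reported here. Alternatives were other pseudocounts, filters, scalings, array weights, marker covariates, the replicate block, fits of the groups compared and leaving out each library; voom on recovered reads, and leaving out P 2 with PJ 3, were added after seeing the data. Promoters came from RefSeq (GRCr8), and figures were drawn with Python 3.11.15.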

Additional observations from a re-analysis of the deposited data

How the results depend on the processing

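Changes in pseudocount (0.1), minimum level (mean FPKM of at least 5), tool (voom on recovered reads) and libraries fitted (only the groups compared) left every count of called synthesis genes within 1.5 times its value in the report. Array weights gave 17 called genes in OVX against Sham, 4 in J against OVX, 10 in P against OVX, 13 in PJ against OVX, 4 in P against J, 8 in PJ against J and 19 in the F test. With these weights the shares of all tested genes were 67.8%, 27.3%, 55%, 64.7%, 29.1%, 51.4% and 81.9%, so the counts rose over all genes too. With the erythroid markers as a covariate the count was 0 in OVX against Sham, in J, P and PJ against OVX, in PJ against J and in the F test, and 0 of all tested genes passed in OVX against Sham. In that fit the sign turned for Mvd (-0.893) and Acss2 (0.087) in OVX against Sham and for Abca1 in OVX against Sham (0.988) and PJ against OVX (-0.002). None of these 4 passed there. The adipocyte covariate gave 0 in J against OVX, 3 in PJ against OVX and 0 in PJ against J. Without the low-level filter the count was 0 in J against OVX and 1 in PJ against J, and more genes were then tested. In J against OVX it was 2 with median-ratio scaling and 2 with scaling that left out mitochondrial and globin genes. Without P 2 and PJ 3 it was 9 in P against OVX, 1 in P against J and 4 in PJ against J. The cause of these shifts was not tested.

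Median-ratio scaling moved the median of all tested genes by 0.08 in OVX against Sham, -0.10 in J, -0.17 in P and -0.25 in PJ against OVX. The split of calls then was 9 higher and 3 lower in OVX against Sham (6 and 5 in the report), 2 and 4 in P (3 and 2) and 5 and 4 in PJ (6 and 2). Sqle and Elovl6 were then called lower in P and PJ. TPM gave 7 higher and 1 lower in PJ, 2 and 2 in P and 5 and 6 in OVX against Sham, and scaling without mitochondrial and globin genes 5 and 2 in P.

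Leaving out 1 library at a time of the 2 groups compared (any of the 15 in the F test) gave 8 (without OVX 1 or OVX 2) to 14 (without OVX 3) called genes in OVX against Sham, 0 (without OVX 1, OVX 2, J 1 or J 3) to 3 (without OVX 3) in J against OVX, 3 (without OVX 2 or P 3) to 9 (without P 2) in P against OVX, 6 to 7 in PJ against OVX, 0 (without J 3, PJ 1 or PJ 2) to 3 (without PJ 3) in PJ against J, 0 in P against J and PJ against P, and 5 (without OVX 2) to 14 (without P 2) in the F test. The difference between the arms in OVX against Sham ran from -0.213 to 0.26 in this way and was -0.529 without Acly and Acss2.

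The replicate numbers gave no pairing, since deviations from the group means correlated at -0.29 to 0.22 between same-numbered libraries. With the replicate block 11, 1, 4 and 10 genes were called in OVX against Sham and in J, P and PJ against OVX, 1 in PJ against J, 0 in P against J and in PJ against P, and 8 in the F test. The number of libraries, 3 a group, limits the precision of every value; on depth, all but Hsd17b7, Elovl6 and Tm7sf2 had over 100 reads in every library.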
